A study of Mus musculus with 14 samples.

Results

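Respiratory complex I, the NADH dehydrogenase of the inner mitochondrial membrane, was followed through the genes whose symbol on the array starts with Nduf. The rule took every probe with such a symbol, and for each gene kept the probe with the highest mean raw signal over the 14 arrays. It gave 45 genes, measured by 59 probes, of the 24563 genes with a symbol. They were 7 core subunits, 9 accessory subunits of the matrix arm, 19 accessory subunits of the membrane arm, the acyl carrier protein Ndufab1, 7 assembly factors and 2 family members that are not counted among the subunits of complex I, Ndufa4 and Ndufa4l2. All 45 probes were well above background on all 14 arrays, so no gene was lost to the filter on dim probes. Ndufb1 was not found on the array by symbol or by RefSeq synonym. Any complex I subunit with a symbol of another form lies outside the rule. The complex I genes spoken of as a family below are these 45.

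The samples were skeletal muscles of mice on the C57BL/6 background: the extensor digitorum longus (EDL) and the soleus, each from Ts1Cje mice and from wild-type (WT) disomic littermates. Ts1Cje mice, used to model Down syndrome, are trisomic for the distal part of chromosome 16. There were 3 EDL arrays and 4 soleus arrays of each genotype, and the design speaks of littermate pairs. No treatment was given, and age and sex were not used here. Whole muscle was extracted, so a lower value can mean fewer cells of a type or less RNA per cell, and these cannot be told apart.

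Complex I takes electrons from NADH, passes them through a flavin and a chain of iron-sulphur clusters to ubiquinone, and pumps protons across the inner membrane. The matrix arm holds the NADH and ubiquinone sites, the membrane arm pumps, and the accessory subunits form a shell around the conserved core. Assembly factors build the enzyme and are not part of it when finished. Slow oxidative fibres, which are abundant in the mouse soleus, are known for a high content of mitochondria, whereas the EDL is made mainly of fast fibres.

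The fibre markers went with the muscle labels. Of 10 fast fibre genes, all were above 0 in the EDL and 9 were called higher in each genotype, and all 10 slow fibre genes were called lower. Myh4, the myosin heavy chain of fast IIb fibres, was higher in the EDL by 2.21 ± 0.58 (log2, SE) in WT and by 6.36 ± 0.58 in Ts1Cje (limma, adjusted p 0.0118 and 6.5e-06). Myh7, the slow myosin heavy chain, was lower by a log2 difference of -6.25 ± 1.20 in WT and -6.79 ± 1.20 in Ts1Cje (adjusted p 0.0019 and 0.00103). The EDL arrays were uneven in slow fibre signal. Myh7 stood at 6.44, -0.02 and 5.74 on the WT EDL arrays and at 3.07, 2.37 and 5.65 on the Ts1Cje EDL arrays, against 10.08 to 10.66 on the 8 soleus arrays. All 5 listed adipocyte genes that passed the filter on dim probes had lower values in the EDL in both genotypes. Of these, 1 was called in WT and 5 in Ts1Cje, where 9.77% and 12.4% of all genes were called lower. Their mean log2 level ran from -1.51 to 1.69 on the WT EDL arrays and from 0.29 to 2.50 on the WT soleus arrays. The part of fibre type, of fat and of other cell types in the differences below was not tested.

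Throughout, a level is log2 of the background-corrected signal minus log2 of the 75th percentile of that array, and a difference between groups is a difference of these levels. Signals of different probes depend on the probe, so levels are set side by side only for 1 probe. A gene is called where the adjusted p was under 0.05 in limma, adjusted over the 14157 genes tested. The levels of 6 genes on every array are given in full in the text and in the plot of single arrays, and the other members are given by range and count.

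The probes behind the core results are shown by their first 30 bases of 60, 5′ to 3′ as the deposited table gives them, because each value below is the signal of that one oligonucleotide. Positions are on mm9. The Ndufaf6 probe lies at chr4:10978306-10978365 on the minus strand, that of Ndufs7 at chr10:79719478-79719537 on the plus strand and that of Ndufb3 at chr1:58652622-58652681 on the plus strand.
Ndufaf6: tagaggactacttaaagaaaatccagcgag
Ndufs7: gagctgccaggctgagcacgataatcccag
Ndufb3: ccagaatggtgataagaagcatcactgaag

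Most complex I genes were not called between EDL and soleus, and the share called higher in the EDL was near that of all genes. In WT, 9 of 45 members were called higher in the EDL, which is 20% of them, where 20.1% of all genes tested were called higher. Only Ndufb3 was called lower, 2.22% of the members against 9.77% of all genes. In Ts1Cje, 7 members were called higher and again Ndufb3 lower, which is 15.6% and 2.22% of the members against 17.5% and 12.4% of all genes. The median difference of the 45 genes was 0.18 in WT and 0.07 in Ts1Cje, beside medians of 0.07 and 0.01 over all genes. Above 0 were 41 members in WT (91.1%, against 56.5% of all genes) and 28 in Ts1Cje (62.2%, against 51.2%). The median was 0.12 in WT without soleus replicate 1, and in Ts1Cje 0.036 without soleus replicate 3 and 0.039 without EDL replicate 3.

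**Figure D1:**
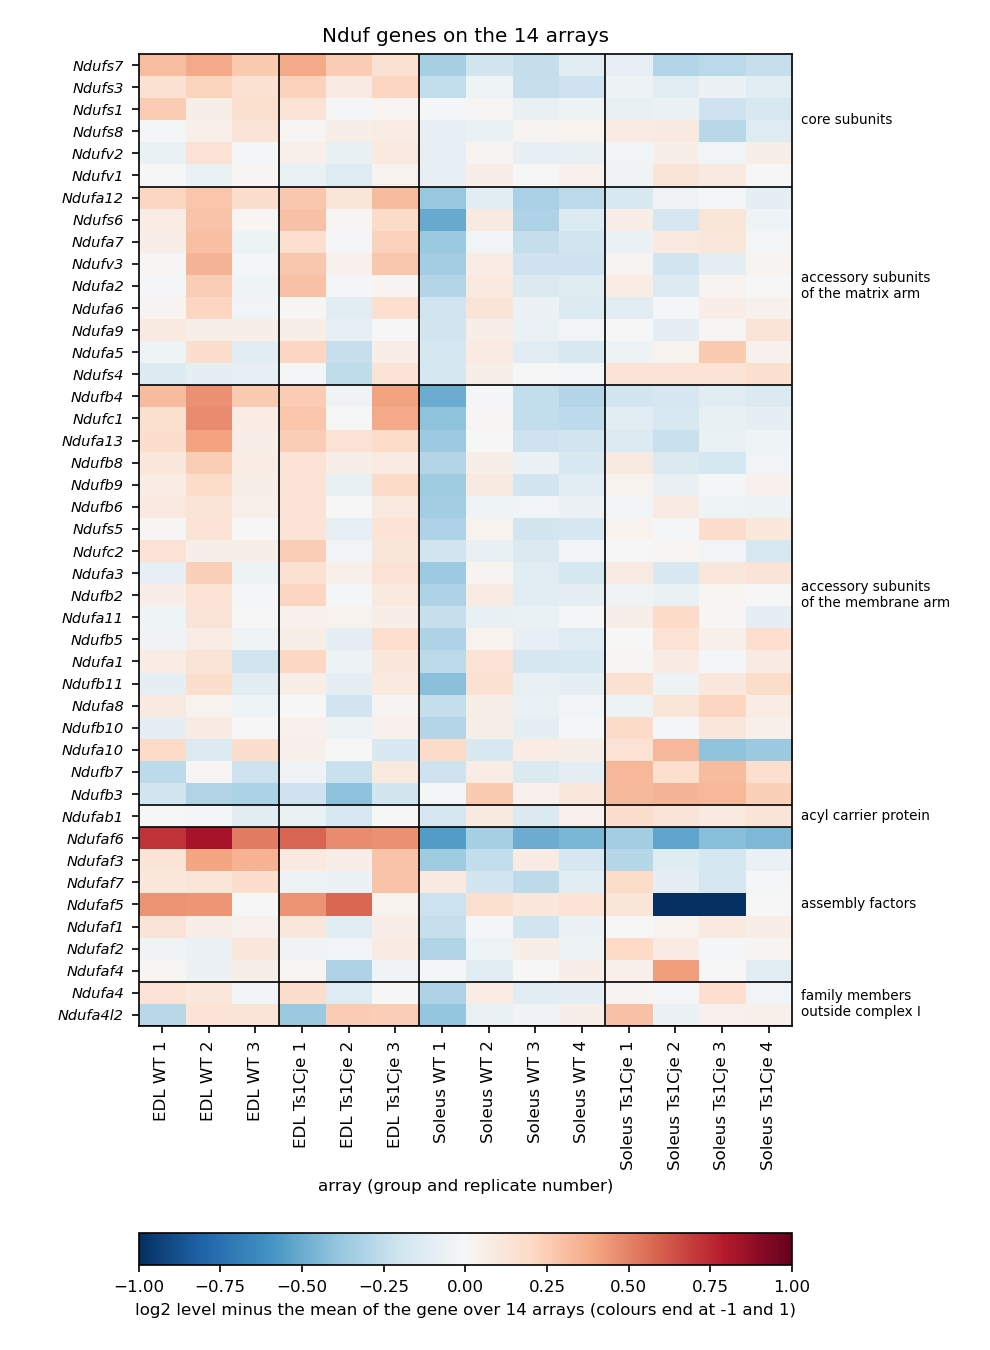
Level of 44 Nduf genes on the 14 arrays, as log2 difference from the mean of each gene over all arrays, with rows grouped by role and columns by muscle and genotype (red above, blue below, colours end at -1 and 1). Ndufaf6 is red on all 6 EDL arrays and blue on all 8 soleus arrays. Ndufb3 runs the other way except on WT soleus replicate 1, which lies just below the mean of the gene. Ndufaf5 is dark blue on 2 Ts1Cje soleus arrays, and most other rows are pale.

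How the arrays were scaled set the sign of the family as a whole. Scaling to the 75th percentile of only those probes that were well above background on all arrays moved the median of all genes by -0.17 in WT and by -0.12 in Ts1Cje. Relative to the median of all genes, the members' median was 0.11 higher in WT and 0.06 higher in Ts1Cje under both percentile scalings. It was 0.01 higher and 0.12 lower (-0.12) with normexp background correction, and 0.05 lower (-0.05) and 0.09 lower (-0.09) with quantile normalization. The calls in WT split into 9 higher and 1 lower in the first scaling, 5 and 1 with the other percentile, 2 and 1 with normexp, and 5 and 3 with quantile normalization. In Ts1Cje the split was 7 higher and 1 lower, then 3 and 5, 2 and 3, and 1 and 8. No direction can therefore be given to the Nduf genes as a group. Between the muscles, the members named below are mainly called members of large change and a fixed set named whatever their differences. For the scalings other than the first, and for the further settings below, the share of all genes called is not given. A change in the number of members called there cannot be read as particular to complex I.

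**Figure D2:**
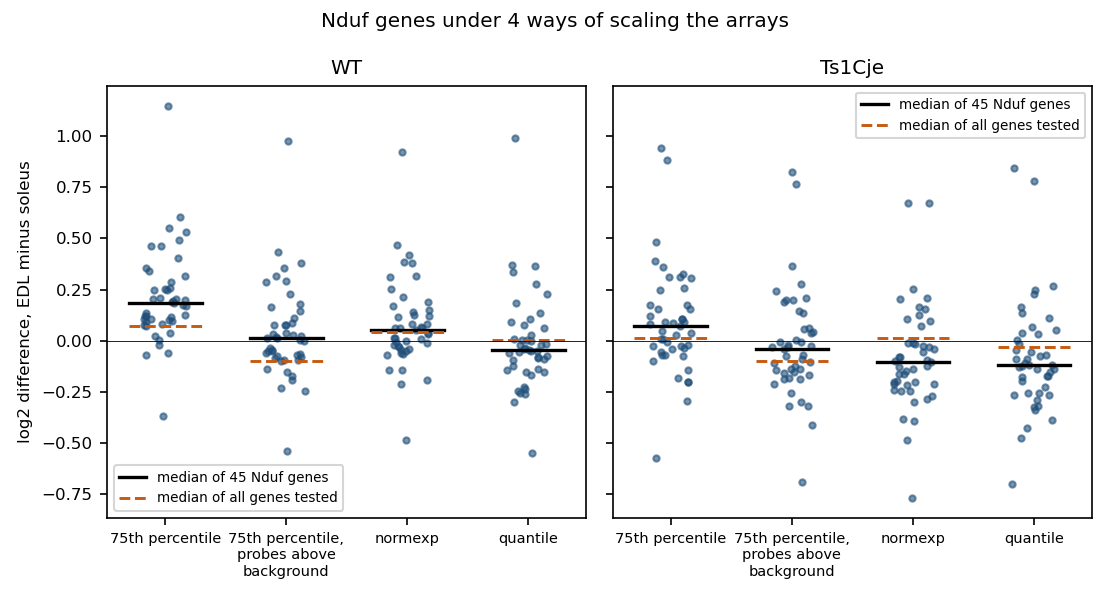
Difference between EDL and soleus (log2, EDL minus soleus) of each of the 45 Nduf genes under 4 ways of scaling the arrays, in WT (left) and Ts1Cje (right). Black bars are the members' medians, which run from -0.05 to 0.18 in WT and from -0.12 to 0.07 in Ts1Cje, and dashed bars are the medians of all genes tested.

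Among the probes used for the 45 members, the largest difference was that of Ndufaf6, an assembly factor needed for an early step of building the membrane arm. Its levels were 3.29, 3.39 and 3.08 on the WT EDL arrays and 3.15, 3.04 and 3.02 on the Ts1Cje EDL arrays. On the soleus arrays they were 2.01, 2.24, 2.07 and 2.11 in WT and 2.22, 2.04, 2.14 and 2.12 in Ts1Cje. Every EDL array was above every soleus array, by more than the range within any group. The difference was 1.15 ± 0.10 (log2, SE) in WT, a 2.22-fold higher signal, and 0.94 ± 0.10 in Ts1Cje, 1.92-fold (limma, adjusted p 6.4e-06 and 2.18e-05). It was called in all 20 other settings tried in each genotype, where it ran from 0.92 to 1.29 in WT and from 0.67 to 0.97 in Ts1Cje.

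The remaining assembly factors moved less. Ndufaf3, which works with Ndufaf4 early in assembly, was higher in the EDL by 0.46 ± 0.12 in WT (adjusted p 0.0106), with levels of 1.73, 1.99 and 1.95 against 1.24, 1.35, 1.68 and 1.43, a call present in 16 of 20 other settings. In Ts1Cje its difference was 0.31 ± 0.12 (adjusted p 0.0639), and the groups of arrays did not overlap in either genotype. Ndufaf1, which acts with Ecsit and Acad9, differed by 0.20 ± 0.09 in WT and -0.03 ± 0.09 in Ts1Cje (adjusted p 0.115 and 0.842).

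Ndufaf5, which modifies an arginine of the core subunit Ndufs7, was called higher in the Ts1Cje EDL by 0.88 ± 0.30 (adjusted p 0.0386). Its levels were 3.31, 3.44 and 2.90 there, against 2.98, 1.74, 1.74 and 2.87 in the Ts1Cje soleus. Replicates 2 and 3 of that soleus group stood apart from replicates 1 and 4, which lay within the range of the EDL arrays or just below it. In WT the EDL arrays read 3.31, 3.30 and 2.86 and the soleus arrays 2.65, 3.02, 2.97 and 3.00, a difference of 0.25 ± 0.30 (adjusted p 0.556). The difference between the genotypes was itself not called (0.63 ± 0.42, adjusted p 0.987). Without soleus replicate 2 or without replicate 3 of Ts1Cje the call was lost, as it was without replicate 1 or replicate 2 of the Ts1Cje EDL, and the largest adjusted p among these fits was 0.122.

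Of the core subunits, which carry the path of the electrons, Ndufs7 and Ndufs3 were called higher in the EDL in both genotypes. Ndufs7 carries the last iron-sulphur cluster before ubiquinone. It read 8.28, 8.35 and 8.24 on the WT EDL arrays and 7.65, 7.79, 7.74 and 7.86 on the WT soleus arrays. In Ts1Cje it read 8.35, 8.22 and 8.13 in the EDL and 7.89, 7.68, 7.70 and 7.74 in the soleus. The groups did not overlap, and the differences were 0.53 ± 0.10 and 0.48 ± 0.10 (adjusted p 0.00126 and 0.00236). The call of Ndufs7 was present in 18 of 20 other settings in WT and in 16 of 20 in Ts1Cje. Quantile normalization gave 0.23 in both genotypes and called neither.

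Ndufs3, a scaffold subunit of the matrix arm, read 7.67, 7.75 and 7.68 in the WT EDL against 7.28, 7.48, 7.30 and 7.32 in the WT soleus. The Ts1Cje arrays read 7.76, 7.61 and 7.74 in the EDL and 7.48, 7.42, 7.47 and 7.41 in the soleus. All EDL arrays were again above all soleus arrays, and the differences were 0.35 ± 0.09 in WT and 0.26 ± 0.09 in Ts1Cje (adjusted p 0.00746 and 0.0364). Its call in WT was lost in 5 of 20 other settings and that in Ts1Cje in 14, and its difference there ran from 0.07 to 0.31.

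Ndufv1, Ndufv2 and Ndufs1 of the NADH end, and Ndufs8, were not called. Ndufv1, which binds NADH and the flavin, read 7.93, 7.86 and 7.94 in the WT EDL and 7.84, 7.99, 7.92 and 7.97 in the WT soleus, and the Ts1Cje arrays lay between 7.79 and 8.05. These groups overlapped, with differences of -0.02 ± 0.09 and -0.10 ± 0.09 (95% intervals -0.21 to 0.16 and -0.29 to 0.09), although quantile normalization gave -0.30 and -0.32 and called both. Ndufv2, its iron-sulphur partner, differed by 0.07 ± 0.09 and 0.01 ± 0.09. Ndufs1, the largest subunit of that module, differed by 0.19 ± 0.09 and 0.18 ± 0.09 (adjusted p 0.12 and 0.143). Ndufs8, which carries a pair of iron-sulphur clusters, differed by 0.08 ± 0.10 and 0.11 ± 0.10. The sign of Ndufv2 and of Ndufs8 turned negative in both genotypes with quantile normalization and with the percentile over probes above background, and Ndufs1 turned in WT with quantile normalization and in Ts1Cje with normexp.

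**Figure D3:**
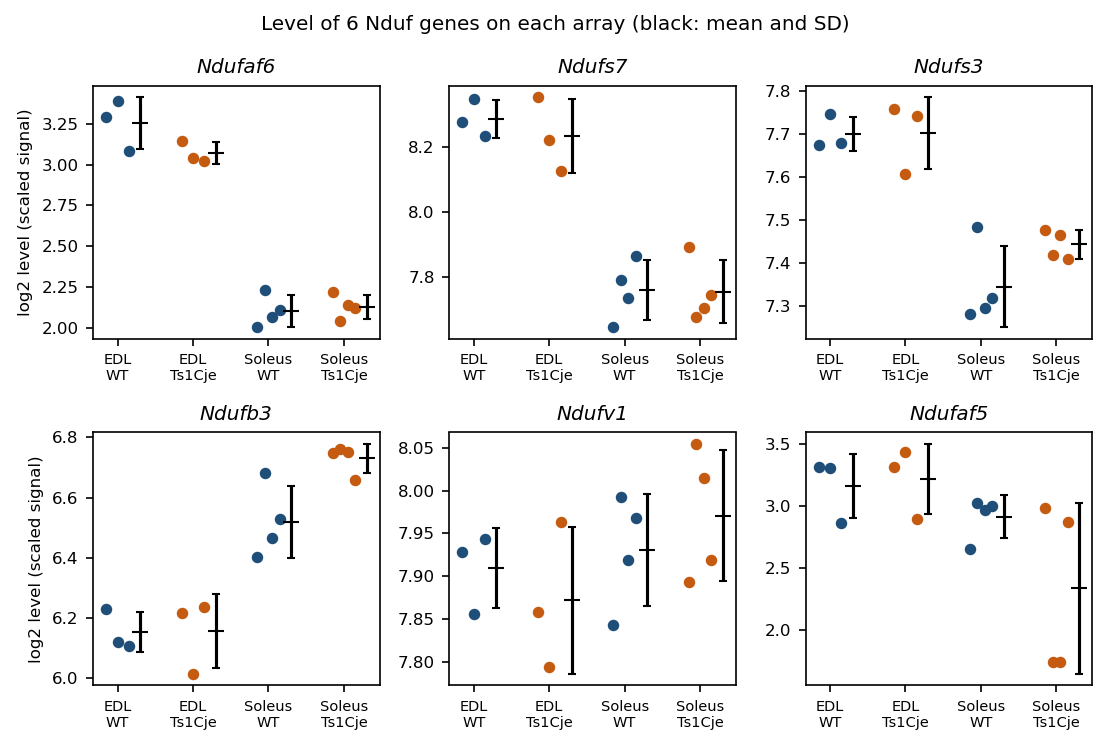
Level of 6 Nduf genes on each array (log2 of scaled signal) in the 4 groups of 3 or 4 arrays, with each array as a point (blue WT, orange Ts1Cje) and the group mean and SD in black. The EDL points lie above the soleus points for Ndufaf6, Ndufs7 and Ndufs3 and below them for Ndufb3, overlap for Ndufv1, and Ndufaf5 has 2 Ts1Cje soleus arrays at 1.74.

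Among the 28 accessory subunits, 4 were called higher in the EDL in WT and 2 in Ts1Cje, and 1 was called lower in each. These are 14.3% and 7.14% called higher, against 20.1% and 17.5% of all genes. Ndufa12, which takes the place of the assembly factor Ndufaf2 late in assembly, read 7.54, 7.61 and 7.50 in the WT EDL and 6.95, 7.22, 7.01 and 7.07 in the WT soleus. Its differences were 0.49 ± 0.09 in WT and 0.31 ± 0.09 in Ts1Cje (adjusted p 0.00177 and 0.0235). The Ts1Cje call was present in 9 of 20 other settings, and the WT call in 19 of 20.

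Ndufb4, a membrane arm subunit, read 7.86, 8.0 and 7.80 in the WT EDL and 7.04, 7.53, 7.30 and 7.25 in the WT soleus, without overlap, and differed by 0.61 ± 0.13 (adjusted p 0.00343). In Ts1Cje it differed by 0.36 ± 0.13 (adjusted p 0.0494), a call kept in 3 of 20 other settings. RefSeq lists a gene Ndufb4b on another chromosome, and whether the probe also reads it was not tested. Ndufc1 and Ndufa13, both membrane arm subunits, were called higher in WT by 0.46 ± 0.13 and 0.40 ± 0.11 (adjusted p 0.0175 and 0.0151), and in Ts1Cje the differences were 0.33 ± 0.13 and 0.31 ± 0.11 (adjusted p 0.0744 and 0.0521). The WT calls were present in 14 and 13 of 20 other settings, and quantile normalization turned Ndufa13 in WT to -0.15.

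In the first scaling, 4 members in WT and 17 in Ts1Cje were below 0. Ndufb3, a small membrane arm subunit, was the only 1 of them called, and it was called in both genotypes. It read 6.23, 6.12 and 6.11 in the WT EDL and 6.40, 6.68, 6.46 and 6.53 in the WT soleus. The Ts1Cje EDL arrays read 6.22, 6.01 and 6.24 and the Ts1Cje soleus arrays 6.75, 6.76, 6.75 and 6.66. All soleus arrays were above all EDL arrays, and the differences were -0.37 ± 0.10 in WT and -0.57 ± 0.10 in Ts1Cje (adjusted p 0.0117 and 0.000711). It stayed below 0 in all 20 other settings of each genotype and was called in 17 of them in WT and 19 in Ts1Cje.

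The acyl carrier protein Ndufab1, which also serves mitochondrial fatty acid synthesis, differed by 0.00 ± 0.09 in WT and -0.20 ± 0.09 in Ts1Cje (adjusted p 0.987 and 0.113). The Ts1Cje groups of Ndufab1 did not overlap, with 7.55, 7.45 and 7.62 in the EDL and 7.78, 7.74, 7.71 and 7.74 in the soleus, and 3 other ways of scaling called it lower. Ndufa4, now known as a subunit of cytochrome c oxidase, differed by 0.18 ± 0.11 and -0.02 ± 0.11. Its relative Ndufa4l2, a gene induced by low oxygen, differed by 0.11 ± 0.17 and -0.04 ± 0.17. The groups of arrays overlapped for both.

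Beyond the calls, 15 members in WT had all EDL arrays above all soleus arrays, which is 33.3% of them where 25.8% of all genes did, and 1 member (2.22%) had all below, where 13.0% of all genes did. In Ts1Cje these were 11 members (24.4%, against 20.4%) and 3 members (6.67%, against 14.9%). The 2 muscle comparisons use different arrays. Of the 45 members, 32 differed in the same direction in both genotypes, 28 above 0 and 4 below, and 7 were called in both. The shares of all genes that did so are not given, so these counts cannot be read as particular to complex I. Across the 45 members the differences in WT and in Ts1Cje correlated with r = 0.86, a description only, since the genes were read on the same arrays and share their scaling. The 34 members called in neither genotype lay between -0.07 and 0.34 in WT. In Ts1Cje they lay between -0.30 (Ndufb7) and 0.25 (Ndufv3). For Ndufb7 the Ts1Cje groups did not overlap, with the EDL lower. Its Ts1Cje difference was called lower at -0.41 with the percentile over probes above background, and at -0.48 with both normexp and quantile normalization. In WT it was -0.06.

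**Figure D4:**
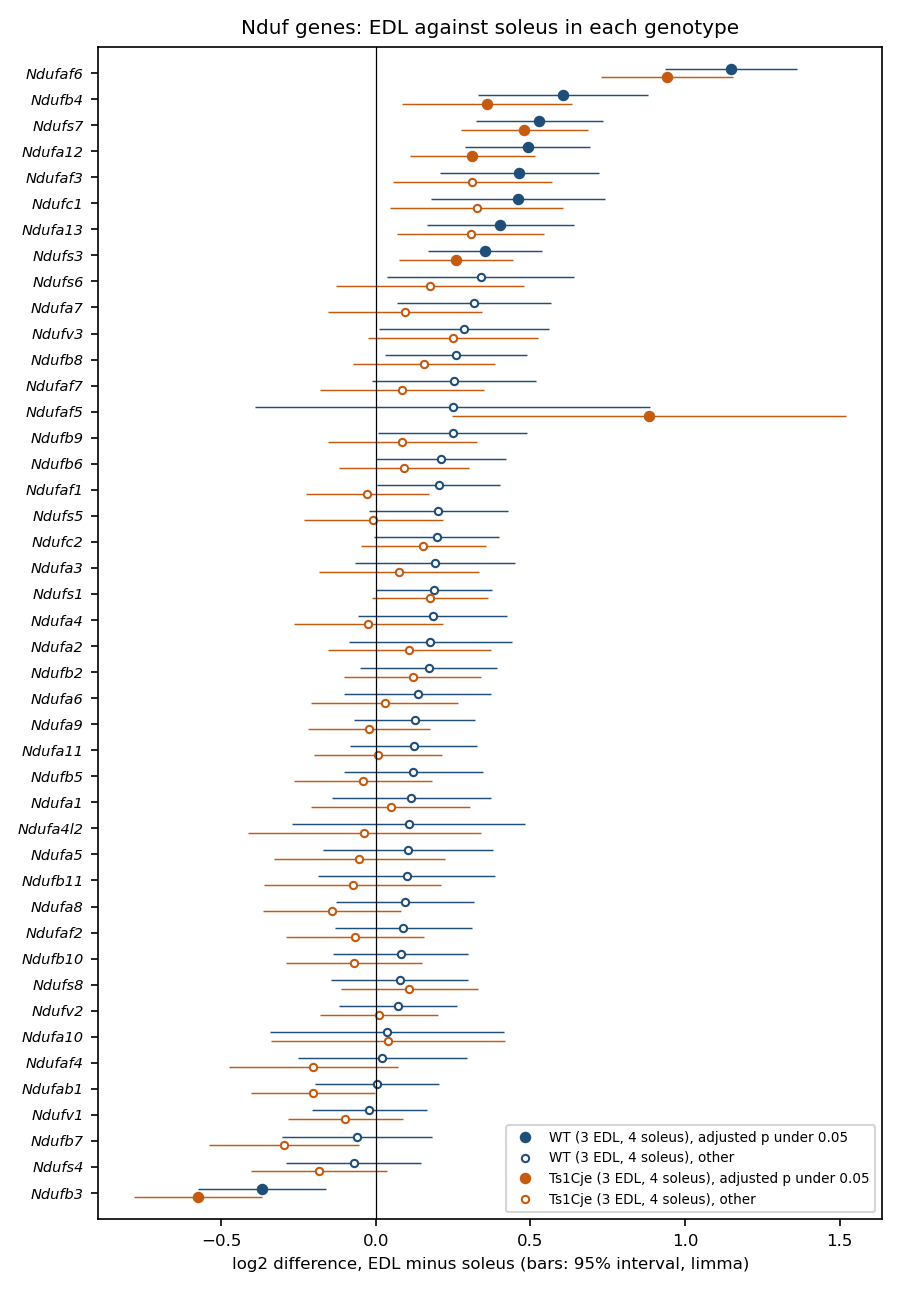
Difference between EDL and soleus (log2, EDL minus soleus) of 44 Nduf genes in WT (blue) and Ts1Cje (orange), with the 95% interval of the limma fit, ordered by the WT value. Filled points passed an adjusted p under 0.05, 9 of those shown in WT and 7 in Ts1Cje, from Ndufaf6 at the top to Ndufb3 at the bottom.

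Slide and muscle nearly coincided, since the 6 EDL arrays shared a slide with replicate 1 of the Ts1Cje soleus and the other 7 soleus arrays were on the other slide. On that shared slide the soleus array read 2.22 for Ndufaf6, 7.89 for Ndufs7 and 6.75 for Ndufb3. Over all 45 members it was nearer to the mean of the other soleus arrays of Ts1Cje than to the EDL mean for 26. With slide as a block, 3 members were called in WT and 3 in Ts1Cje, and within the first slide alone, with 1 soleus array, Ndufaf6 was the 1 member called. Leaving out 1 array also moved the counts. In WT, 15 members were called without soleus replicate 2, and in Ts1Cje 4 were called without EDL replicate 1 and 5 without soleus replicate 2 or replicate 3. Without the 3 EDL arrays with Myh7 above 5, a choice made after seeing the data, WT keeps 1 EDL array, which the fit assumes to vary like the other groups, and Ts1Cje keeps 2. The counts were then 7 in WT and 3 in Ts1Cje.

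A gene can look different through another probe. Of the members, 12 had more than 1 probe, and of the 14 further probes 12 passed the filter. In WT 4 were called, 2 of them against the direction of the probe used. The share called over all 25183 probes tested is not given. Of all genes, 20.1% were called higher and 9.77% lower in WT. The count of second probes called can therefore not be read as particular to these members. Ndufv3 is an accessory subunit at the NADH end that is known to be made in a short and a long form by alternative splicing, and its human counterpart lies on the chromosome that is trisomic in Down syndrome. The 3 mm9 positions of its probes are chr17:31663758-31663817, chr17:31665148-31665207 and chr17:31668209-31668268, all on the plus strand, and their first 30 bases are shown because they gave unlike readings. They were chosen after their values had been seen.
Ndufv3, first: aagaaaagctattgccactccctccgtcct
Ndufv3, middle: gtgccagaaggaggctcccaggtccaggag
Ndufv3, last: ggtagaccccgatgttggttcccatgaatc

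The last probe, the brightest and the one used above, differed by 0.29 ± 0.13 in WT and 0.25 ± 0.13 in Ts1Cje between EDL and soleus. The middle probe read -0.17, -0.31 and 0.23 in the WT EDL and 1.71, 1.49, 1.34 and 2.05 in the WT soleus. In Ts1Cje it read -0.04, -0.16 and 0.37 in the EDL and 2.23, 1.8, 1.57 and 1.75 in the soleus. No EDL array reached the lowest soleus array, and the middle probe was 3.31-fold lower in the EDL in WT (log2 difference -1.73 ± 0.21) and 3.43-fold lower in Ts1Cje (-1.78 ± 0.21), with adjusted p 7.17e-05 and 4.92e-05 in limma over 25183 probes. The first probe differed by -0.07 ± 0.18 and 0.31 ± 0.18. All 3 were well above background on all 14 arrays. Which transcripts each probe reads was not tested.

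Other second probes that were called in WT belonged to Ndufaf4 (0.57 ± 0.12, against 0.02 for the probe used), Ndufb11 (0.67 ± 0.13, against 0.10) and Ndufb5 (-0.40 ± 0.12, against 0.12). That of Ndufb4 gave 0.34 ± 0.17 in WT, the same direction as the probe used.

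Genotype moved no complex I gene past the threshold in either muscle. In the EDL, 0 of 45 members were called by limma and 0 had an unadjusted p under 0.05, and 0.00706% of all genes, a single gene, were called. The median difference of the members, Ts1Cje minus WT, was 0.00, with 23 above 0 (51.1%, against 50% of all genes) and 22 below. The smallest p-values belonged to Ndufaf6 (-0.18 ± 0.11), Ndufs1 (-0.11 ± 0.09) and Ndufaf3 (-0.14 ± 0.13), each with an adjusted p of 1. Their 95% intervals, -0.41 to 0.05, -0.31 to 0.09 and -0.42 to 0.13, allow a decrease of that size. Without the 3 EDL arrays with Myh7 above 5, which leaves 1 WT array, the median of the members was -0.09 and 5 of 45 were above 0.

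In the soleus, Ts1Cje arrays were slightly higher than WT arrays for most members. 40 of 45 differences (88.9%) were above 0, where 62.7% of all genes were. The median of the members was 0.12 beside 0.07 over all genes, and 33 members lay above the median of all genes. The count above 0 was 42, 32 and 36 of 45 with normexp, quantile normalization and the percentile over probes above background. No member was called by limma (0 of 45, with 6 at an unadjusted p under 0.05), where 0.247% of all genes were. The groups of arrays did not overlap, with Ts1Cje higher, for 4 members, 8.89% of them where 6.12% of all genes did so. Ndufb7, a membrane arm subunit, had the smallest p. It read 7.29, 7.57, 7.35 and 7.41 in WT and 7.82, 7.66, 7.81 and 7.66 in Ts1Cje, a difference of 0.34 ± 0.10 (adjusted p 0.273, 95% interval 0.11 to 0.56). Ndufs5, another membrane arm subunit, differed by 0.23 ± 0.10, and Ndufb3 by 0.21 ± 0.09 (adjusted p 0.341 for both).

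Replicate 1 of the WT soleus was the low array. Its members had a median of -0.29 relative to their means over all arrays, against -0.10 to 0.03 on the other 3 WT soleus arrays and -0.02 to 0.01 on the Ts1Cje soleus arrays. All genes had a median of -0.09 on it. Fibre markers also moved with genotype in this muscle: Myh4 was lower in Ts1Cje by a log2 difference of -4.12 ± 0.53 (adjusted p 0.00647), and 3 of 10 fast fibre genes were called lower. Their part in the complex I values was not tested.

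The difference between the muscles in the effect of genotype was not called for any member (0 of 45 by limma, and 0% of all genes). The smallest p-values of the difference, EDL minus soleus, were those of Ndufaf1 (-0.23 ± 0.13), Ndufa8 (-0.24 ± 0.15) and Ndufab1 (-0.21 ± 0.13), each with an adjusted p of 0.987. The members had a median of -0.15 here, beside -0.07 over all genes, and 3 of 45 were above 0 (6.67%, against 38.1% of all genes). None of the 45 differences had an unadjusted p under 0.05.

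The other mitochondrial lists gave a frame for these values. Complexes II to V together had 55 genes tested, with medians of 0.04 in WT and -0.10 in Ts1Cje between EDL and soleus. Of these, 3 were called higher and 2 lower in WT (5.45% and 3.64%, against 20.1% and 9.77% of all genes), and 2 higher and 5 lower in Ts1Cje (3.64% and 9.09%, against 17.5% and 12.4%). The 13 genes of the citric acid cycle had medians of 0.14 and 0.05, and the 28 proteins of the mitochondrial ribosome 0.16 and 0.08. In WT, 3 genes of the cycle (23.1%) and 6 of the ribosome (21.4%) were called higher, and 0 and 1 lower (0% and 3.57%). In Ts1Cje, 2 and 3 were called higher (15.4% and 10.7%), and 1 and 2 lower (7.69% and 7.14%). The shares called higher in WT were near that of all genes for these 2 lists, as for the Nduf genes. Complexes II to V lay below it. Cox11, a copper chaperone in the assembly of cytochrome c oxidase, was higher in the EDL by 0.73 ± 0.09 in WT and 0.79 ± 0.09 in Ts1Cje (adjusted p 9.35e-05 and 4.79e-05). Cox8a, a subunit of that oxidase, was lower by a log2 difference of -0.38 ± 0.10 and -0.62 ± 0.10 (adjusted p 0.0136 and 0.000641). Cox17, another copper chaperone of the oxidase, differed by -1.43 ± 0.60 in WT and -1.73 ± 0.60 in Ts1Cje (adjusted p 0.0929 and 0.0457).

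Of 11 complex I assembly factors with other names, 2 were called higher in the EDL in both genotypes, 18.2% of them against 20.1% and 17.5% of all genes. Nubpl, which delivers iron-sulphur clusters to complex I, was higher by 0.68 ± 0.15 and 0.46 ± 0.15 (adjusted p 0.00377 and 0.0312). Acad9, a partner of Ndufaf1, was higher by 0.44 ± 0.10 and 0.48 ± 0.10 (adjusted p 0.00654 and 0.00373). The partner of Ndufaf5 now named Ndufaf8, on the array as 1810043H04Rik, was called lower in the EDL, by a log2 difference of -0.45 ± 0.16 and -0.58 ± 0.16 (adjusted p 0.0447 and 0.014).

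**Figure D5:**
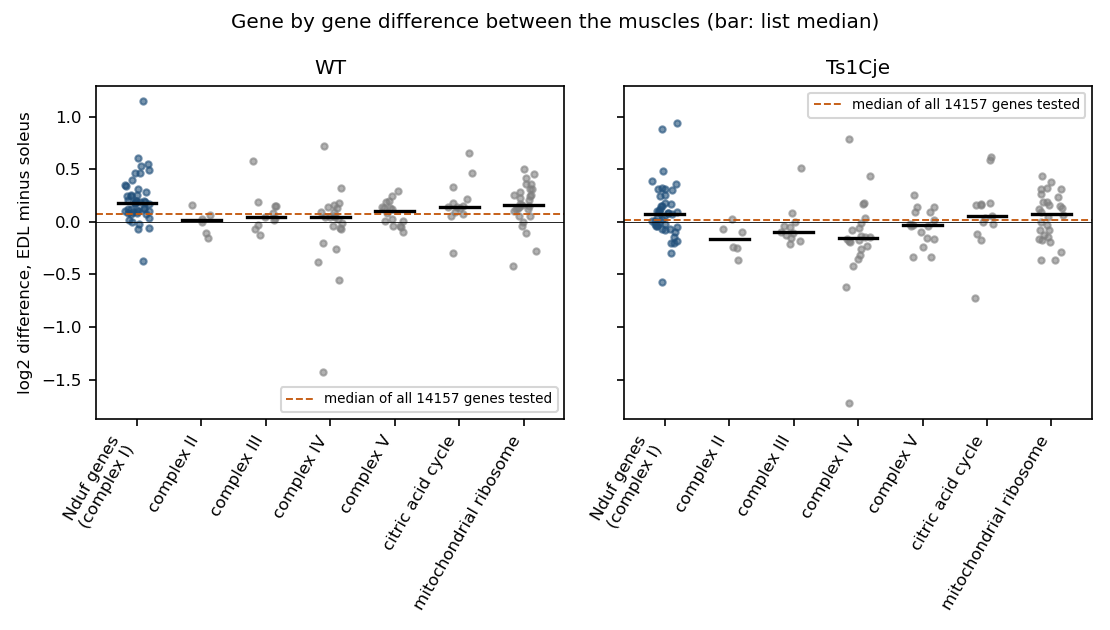
Difference between EDL and soleus (log2, EDL minus soleus) of each gene of 7 mitochondrial lists in WT (left) and Ts1Cje (right), with the list median as a bar and the median of all genes tested as a dashed line. Medians lie between 0.02 and 0.18 in WT and between -0.17 and 0.08 in Ts1Cje.

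Of the factors known to drive mitochondrial genes, 1 of 15 was called higher in the EDL and 2 lower in WT, and 4 were lower in Ts1Cje. In WT these were 6.67% higher and 13.3% lower, against 20.1% and 9.77% of all genes. In Ts1Cje 0% were higher and 26.7% lower, against 17.5% and 12.4%. Esrrb and Esrrg, nuclear receptors of the estrogen-related family, were lower by log2 differences of -2.06 ± 0.19 and -2.12 ± 0.38 in WT and -2.36 ± 0.19 and -2.33 ± 0.38 in Ts1Cje. Their adjusted p-values were 1.07e-05 and 0.0012 in WT and 2.79e-06 and 0.000604 in Ts1Cje. Esrra, the third of that family, differed by -0.07 ± 0.13 in WT and was called lower in Ts1Cje (-0.39 ± 0.13, adjusted p 0.04), a call lost in 10 of 20 other settings, with adjusted p up to 0.579. The coactivators Ppargc1a (0.11 ± 0.38 and 0.02 ± 0.38) and Ppargc1b (-0.73 ± 0.40 and -0.83 ± 0.40) did not pass the threshold. Neither did Nrf1 (0.11 ± 0.14 and -0.27 ± 0.14), Gabpa (-0.14 ± 0.14 and -0.34 ± 0.14) or Tfam (0.20 ± 0.15 and 0.34 ± 0.15), and Ppargc1a, Nrf1, Gabpa and Tfam changed sign in WT in at least 1 other setting.

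Promoters were read to see what the members share by sequence. RefSeq promoters of build GRCm38.p6, 250 bases before to 50 after the annotated start, were listed for 39 of the 45 members. 5 short motifs were searched on both strands: AAGGTCA (the half-site of estrogen-related receptors), GCATGCGC (the core of Nrf1 sites, which can overlap itself on the opposite strand), CCGGAAGT (ETS factors such as Gabpa), AAGATGGC (Yy1) and GGGCGG (Sp factors). AAGGTCA was found in 3 members (7.69% of those with a promoter, and 4.72% of all 32851 promoters), GCATGCGC in 5 (12.8%, and 2.71%), CCGGAAGT in 1 (2.56%, and 3.89%), AAGATGGC in 7 (17.9%, and 2.75%) and GGGCGG in 20 (51.3%, and 35.7%). 10 members had none of the 5.

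In all 7 members with AAGATGGC the motif lay on the strand of the gene and within the first transcribed bases, beginning at base 23 to base 39 counted from 1 at the annotated start. A 30-base window around it is shown for each, with the motif in capitals, because its place and strand were shared. The motif holds ATG, the letters of a start codon, and whether translation begins there was not tested. Binding of Yy1 was not tested either.
Ndufa3: ccgccaagaacAAGATGGCcgggagtaagt
Ndufc1: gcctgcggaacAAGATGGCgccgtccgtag
Ndufs7: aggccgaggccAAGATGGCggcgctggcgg
Ndufa9: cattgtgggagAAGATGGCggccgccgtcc
Ndufs6: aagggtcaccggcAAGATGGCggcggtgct
Ndufs4: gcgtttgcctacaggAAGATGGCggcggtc
Ndufb8: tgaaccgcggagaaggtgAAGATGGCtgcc

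The differences of these 7 between EDL and soleus ran from -0.07 to 0.53 in WT and from -0.18 to 0.48 in Ts1Cje. Ndufs7 and Ndufc1 were called higher in the EDL in WT, at 0.53 and 0.46, whereas Ndufs4 differed by -0.07 ± 0.10 and Ndufa9 by 0.13 ± 0.09. The 3 members with AAGGTCA, Ndufb4, Ndufb2 and Ndufs5, differed by 0.61, 0.17 and 0.20 in WT and by 0.36, 0.12 and -0.01 in Ts1Cje. The 5 with GCATGCGC ran from 0.02 to 0.25 in WT, and none of them was called there, while Ndufaf5 was called in Ts1Cje.

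The upstream 250 bases of Ndufb4, called higher in the EDL in WT, and of Ndufb3, called lower, are shown as the promoters of members with opposite differences. That of Ndufb4 is chr16:37654369-37654618 on the minus strand, outside the segment that is trisomic in Ts1Cje, and that of Ndufb3 is chr1:58586147-58586396 on the plus strand. Capitals mark matches to the 5 motifs on either strand. Ndufb4 held GGGCGG (on the opposite strand) and AAGGTCA, which began 55 bases before the start, and these letters were not found in the window of Ndufb3.
Ndufb4: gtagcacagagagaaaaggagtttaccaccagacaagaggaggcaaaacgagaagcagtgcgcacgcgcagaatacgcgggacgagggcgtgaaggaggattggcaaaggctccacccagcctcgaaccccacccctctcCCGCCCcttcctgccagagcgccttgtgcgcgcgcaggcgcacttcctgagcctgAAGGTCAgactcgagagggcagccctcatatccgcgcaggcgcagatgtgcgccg
Ndufb3: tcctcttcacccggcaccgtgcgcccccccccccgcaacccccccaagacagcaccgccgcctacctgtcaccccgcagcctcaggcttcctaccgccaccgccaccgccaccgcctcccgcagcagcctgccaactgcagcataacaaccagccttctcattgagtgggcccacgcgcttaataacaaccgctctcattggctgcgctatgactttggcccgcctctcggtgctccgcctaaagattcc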

How the data were processed

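RNA of 14 mouse muscle samples (25 ng each, labelled with Cy3) was hybridised by the authors to one-colour Agilent arrays with 60-base probes. The deposited scanner files hold spot intensity, background-subtracted by Feature Extraction. The headers name its version 11.5.1.1, whereas the submitters' processing notes name 9.1. The deposited table holds the same intensity values and normalized log2 values, which were reproduced from the scanner files by dividing each array by its 75th percentile. The other deposited columns used are 0 or 1 marks of each spot, such as well above background, per the file headers. Probe positions are on mm9, per the file headers.

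From the scanner files, log2 of the processed signal minus log2 of the 75th percentile was taken, control spots and outlier spots were left out, and for each gene the probe with the highest mean raw signal was kept. A gene was tested where 1 group or more had its probe well above background throughout, which held for 14157 genes. Group means were fitted over the 14 arrays in limma 3.58.1 (R 4.3.3) with empirical Bayes and Benjamini-Hochberg adjustment over all genes tested, with a threshold of 0.05. The fit was tested on simulated data. The share of the 55681 probes well above background ran from 41.3% to 52.9% per array, arrays of a group correlated at 0.979 to 0.988, and 3 or 4 arrays a group limit the precision. The median SE of a gene was 0.17 between muscles.

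Littermate pairs are stated, but the labels do not tie the muscles to animals, so the p-values measure the spread between these samples. Deviations from the group means correlated between same-numbered arrays of WT and Ts1Cje EDL at 0.4, 0.116 and 0.314. Between WT EDL and WT soleus the correlations were 0.505, 0.407 and 0.328. Arrays of unlike number were not compared, so these values cannot tell whether a number marks a pair. The counts are over all 45 members, of which 1 is not reported here by name. Members and gene lists were chosen with earlier results of these data known. Genes named were, for the muscles, the 8 called members of largest change in each direction and a fixed set of core subunits, relatives and regulators, and for genotype the 3 members of smallest p. Up to 2 called genes of largest change were named per further list. Genes outside this rule, such as Ndufaf8, Ndufb7 between the muscles and the second probes, were chosen after their values were seen. Alternatives were 3 other scalings, the deposited normalized table, filters, the mean of probes, other variance settings, blocks for replicate number and slide, and leaving out each array.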

Additional observations from a re-analysis of the deposited data

Results flagged for a closer look

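Each of 22 named members, and the median of all members, was checked in both soleus groups of 4 arrays, 46 checks in all, and 3 held an array far from the other 3, and chance gives about 1 in 20. Ndufaf5 read 2.65 on WT soleus replicate 1, below the nearest array at 2.97. Ndufv2 read 7.33 on WT soleus replicate 2, above the nearest array at 7.23. Ndufb3 read 6.66 on Ts1Cje soleus replicate 4, below the nearest array at 6.75, and every soleus array of Ndufb3 remained above every EDL array.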

How the results depend on the processing

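Ndufaf6 higher and Ndufb3 lower in the EDL kept their direction in both genotypes in all 20 other settings. In WT 10 members were called between the muscles, but 3 with normexp, 6 with the percentile over probes above background and 3 with slide as a block, and 8 to 15 when an array was left out. In Ts1Cje 8 were called, but 5 with normexp, 4 with no filter, 3 with only the 2 groups compared, 3 with slide as a block, 1 within 1 slide, 3 without the EDL arrays high in Myh7, and 4 to 8 when an array was left out. With the replicate block 10 members were called in WT and 5 in Ts1Cje, and with the WT arrays alone, a fit chosen after seeing the data, 9 in WT, all higher, so that the call of Ndufb3 was lost. Deviations of same-numbered arrays correlated at -0.116, -0.291, 0.00844 and -0.131 between the WT and Ts1Cje soleus. Between the muscles of Ts1Cje the correlations were -0.0905, -0.157 and 0.115. Such values cannot show whether the arrays were paired, since arrays of unlike number were not compared. Genotype gave 0 called members in each setting run. Of the values of single genes, 108 lost and 9 gained a call. Where a value moved or turned, the cause was not tested.

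Signs turned mostly for differences near 0. In WT, between EDL and soleus, normexp gave -0.069 for Ndufs8, -0.14 for Ndufab1, -0.059 for Ndufa4l2 and -0.032 for Ppargc1a. Quantile normalization gave -0.15 for Ndufa13, -0.015 for Ndufs1, -0.14 for Ndufs8, -0.14 for Ndufv2, -0.23 for Ndufab1, -0.020 for Ndufa4, -0.047 for Ndufa4l2 and -0.075 for Ppargc1a. The percentile over probes above background gave -0.10 for Ndufs8, -0.10 for Ndufv2, -0.17 for Ndufab1, -0.067 for Ndufa4l2, -0.067 for Ppargc1a and -0.065 for Nrf1. Slide as a block gave -0.11 for Ndufs8, 0.081 for Ndufv1, -0.055 for Ndufab1, -0.17 for Ndufa4l2, 0.21 for Esrra and -0.46 for Tfam, and the replicate block in WT alone -0.076 for Ppargc1a. In Ts1Cje, normexp gave -0.027 for Ndufs1, -0.081 for Ndufs8, -0.15 for Ndufv2 and -0.17 for Ppargc1a. Quantile normalization gave -0.045 for Ndufs8, -0.17 for Ndufv2 and -0.10 for Ppargc1a, and the percentile over probes above background -0.0069 for Ndufs8, -0.11 for Ndufv2 and -0.10 for Ppargc1a. Ppargc1a was at -0.036 with the mean of probes and -0.079 with the replicate block. Slide as a block and the fit within 1 slide both gave -0.030 for Ndufs8, 0.024 for Ndufaf1 and -0.15 for Tfam. Without the EDL arrays high in Myh7, Ndufv2 was at -0.029 in Ts1Cje, and the genotype difference of Ndufs1 in the EDL was 0.00686.

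Leaving out 1 array moved Ndufv1 from -0.051 to 0.0052, Ndufab1 from -0.040 to 0.047, Ppargc1a from -0.076 to 0.36 and Gabpa from -0.23 to 0.00163 in WT. In Ts1Cje it moved Ndufv2 from -0.029 to 0.060, Ndufa4 from -0.10 to 0.049, Ndufa4l2 from -0.14 to 0.17, Ndufaf1 from -0.074 to 0.039 and Ppargc1a from -0.26 to 0.34.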
